A study of Mus musculus with 24 samples.

Results

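The 9 transcription factors described here are Tbx2, Tbx3, Tbx5, Tbx18, Tbx20, Nkx2-5, Isl1, Shox2 and Prox1, which are known for their parts in atrial, pacemaker and working-muscle identity in the heart. They were taken by symbol from the 20351 protein-coding genes of the count table. All 9 have a row there, and 8 had enough counts to be tested. Working atrial muscle conducts fast and contracts strongly, whereas the sinus node and the atrioventricular node conduct slowly and beat on their own. The T-box activator Tbx5 and the homeodomain factor Nkx2-5 switch on working-muscle genes in the chambers, together with Gata4. Tbx2 and Tbx3 bind the same DNA element as Tbx5 but repress, and they keep chamber genes off in the node and the atrioventricular canal. Shox2, Isl1 and Tbx18 belong to the sinus node program, in which Shox2 holds Nkx2-5 in check. Tbx20 is required in working muscle and limits Tbx2, and Prox1 is needed for sarcomere structure.

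The RNA came from HL-1 cells, a beating line that derives from a mouse atrial tumour, so that all libraries come from 1 established line and not from heart tissue. All cells had been infected with adenovirus at 30 infectious units per cell for 48 h and kept in serum-free medium. The virus carried either a scrambled hairpin (control cells) or a hairpin against MuRF1, the muscle ubiquitin ligase encoded by Trim63 (knockdown cells). For 60 min, cells of each kind then underwent cyclic stretch of 15% at 1 Hz or were kept still beside it, and RNA was taken directly afterwards. The labels call the stretch both uniaxial and biaxial. This gave 4 groups of 6 libraries: control unstretched, control stretched, knockdown unstretched and knockdown stretched. No group with another hairpin against MuRF1 is included, so loss of MuRF1 and other effects of that hairpin cannot be told apart. Whether replicates were separate cultures is not stated, so p-values measure only the spread between these libraries, which may be technical. Each library code also holds a number that is shared within a group and differs between groups. If it marks a plate, plate and group cannot be told apart. A letter in the code is a for replicates 1 to 3 and b for replicates 4 to 6 in every group. It serves as a block in 1 alternative.

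Libraries held between 37.7 and 54.8 M estimated counts, except replicate 5 of the stretched controls with 23.6 M, which also stood apart on the second principal component. The targeted gene followed the labels. Trim63 was at 640 ± 68.1 CPM (counts scaled to sequencing depth with TMM factors; SD, n = 6) in unstretched control cells and at 55.7 ± 1.17 in unstretched knockdown cells. With stretch it was at 781 ± 81.7 and 68.5 ± 7.92. Both knockdown differences reached 0.00216 in the two-sided exact permutation test, the smallest p that 924 divisions of 12 libraries can give. The labelled cell type was checked on 8 cardiomyocyte markers, all of which were above 1 CPM in every library, with Myh6 only at 1.80 to 6.94 CPM across libraries. The atrial hormone gene Nppa stood at 0.457 ± 0.111 CPM in unstretched control cells.

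The genes lie on 7 mouse chromosomes (GRCm38, GENCODE). Tbx3 (ENSMUSG00000018604, chr5:119670669-119684724, plus strand) and Tbx5 (ENSMUSG00000018263, chr5:119832668-119885219, plus strand) are neighbours on chromosome 5. Tbx18 (ENSMUSG00000032419, chr9:87702800-87731260, minus strand) and Tbx20 (ENSMUSG00000031965, chr9:24718138-24774303, minus strand) lie far apart on chromosome 9. Tbx2 is at chr11:85832551-85841948, Nkx2-5 at chr17:26838664-26845009, Isl1 at chr13:116298281-116309689, Shox2 at chr3:66971727-66981771 and Prox1 at chr1:190118035-190170714. Exons of 4 of the genes overlap those of a gene on the opposite strand: 115 bases of Tbx3 with Tbx3os1, 970 bases of Tbx18 with D030062O11Rik, 153 bases of Shox2 with the protein-coding gene Rsrc1 and 133 bases of Prox1 with Prox1os. Whether the counting used strand is not given in the sources used here, so reads in those stretches cannot be assigned with certainty.

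The RefSeq table of promoters (build GRCm38.p6) holds 6 of the 9 genes, and 3 of the well-expressed ones are shown, to set factors that fell on knockdown beside one that was not called. Shox2 had the largest fall, Tbx20 a smaller one, and Tbx18 was not called by edgeR for knockdown with all libraries in the fit. Each line gives the 250 bases upstream of the start site on the minus strand, 5′ to 3′. Capitals mark a GC box (GGGCGG on either strand) in Shox2 and Tbx20, and a CCAAT box (CCAAT on either strand) in Tbx18. The Shox2 window is chr3:66981772-66982021, the Tbx20 window chr9:24774304-24774553 and the Tbx18 window chr9:87731261-87731510.
Shox2: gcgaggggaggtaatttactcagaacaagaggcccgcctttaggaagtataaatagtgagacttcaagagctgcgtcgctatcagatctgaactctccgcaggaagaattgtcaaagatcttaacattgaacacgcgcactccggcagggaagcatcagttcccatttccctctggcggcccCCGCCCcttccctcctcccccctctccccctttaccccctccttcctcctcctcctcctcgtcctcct
Tbx20: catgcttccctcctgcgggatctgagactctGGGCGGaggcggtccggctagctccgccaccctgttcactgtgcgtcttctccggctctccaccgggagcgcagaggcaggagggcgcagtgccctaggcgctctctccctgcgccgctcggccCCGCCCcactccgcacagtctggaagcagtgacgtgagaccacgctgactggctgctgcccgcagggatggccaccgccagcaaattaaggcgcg
Tbx18: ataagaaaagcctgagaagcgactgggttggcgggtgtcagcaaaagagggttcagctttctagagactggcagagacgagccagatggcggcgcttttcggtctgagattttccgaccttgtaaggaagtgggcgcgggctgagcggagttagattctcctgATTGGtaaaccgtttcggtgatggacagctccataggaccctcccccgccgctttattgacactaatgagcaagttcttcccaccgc
The GC box of Shox2 begins 68 bases before the start site. Those of Tbx20 begin 219 and 95 bases before it, and the CCAAT box of Tbx18 begins 87 bases before it. Among the genes not shown, both Prox1 windows also held a GC box, and Prox1 was called higher on knockdown. The Isl1 window held CCAAT boxes. The window of Nkx2-5, which rose on knockdown, held neither motif. Both motifs are common, since 32.7% of 32851 mouse promoters of this length hold a GC box and 33.8% a CCAAT box, and both were added to the search after the sequences had been seen. The T-box core GGTGTGA, the Nkx2-5 site TCAAGTG and the AP-1 site TGANTCA, searched on both strands, had no exact match in any window of the 6 genes. They occur in 3.33%, 2.68% and 6.75% of all promoters. This says only that these letters are not in these windows.

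The 8 measurable factors fell into a high class and a low class. On the scale of CPM per kb of merged exons, which allows genes to be compared, Nkx2-5 had the highest level in unstretched control cells, 43.3 ± 2.29 (SD, n = 6). Tbx5 followed at 24.5 ± 0.431, above Shox2 at 21.6 ± 0.802 and Tbx18 at 20.7 ± 0.999. The ranges of Shox2 (20.4 to 22.4) and Tbx18 (19.3 to 22.1) overlapped, so that their levels per kb were not distinguishable. Tbx20 was lower at 13.6 ± 0.798 CPM per kb. The chamber factors Tbx5, Nkx2-5 and Tbx20 and the node factors Shox2 and Tbx18 were thus all abundant in the same line. The repressors Tbx2 and Tbx3 were scarce. Tbx2 was at 0.419 ± 0.0826 CPM per kb, and the levels per kb of Tbx3 (0.215 ± 0.0201) and Prox1 (0.193 ± 0.0151) overlapped below it. Isl1 was at 0 in 23 of 24 libraries and had 1 count in replicate 1 of the stretched knockdown cells. A count of 0 allows a level of up to 0.0556 to 0.123 CPM, depending on the library (3 counts; counting error only). Isl1 was therefore not detectable at this depth, and it enters no comparison.

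The order by level per kb was different in knockdown cells. There Nkx2-5 stood at 51.6 ± 2.51 CPM per kb without stretch, followed by Tbx18 at 19.9 ± 0.359, Tbx5 at 15.2 ± 0.958, Shox2 at 12.2 ± 0.385 and Tbx20 at 10.2 ± 0.495. No 2 neighbours in that order overlapped on the length of merged exons, down to Tbx2 (0.879 ± 0.0739), Tbx3 (0.416 ± 0.0368) and Prox1 (0.230 ± 0.0143). The order of Shox2 and Tbx20 depends on the length used. Merged exons hold 3311 bases for Shox2 and 11997 for Tbx20, the longest coding transcripts 3079 and 9091. Tbx18 stood above Tbx5 and Shox2 in level per kb there, as the plot of levels per length shows.

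**Figure D1:**
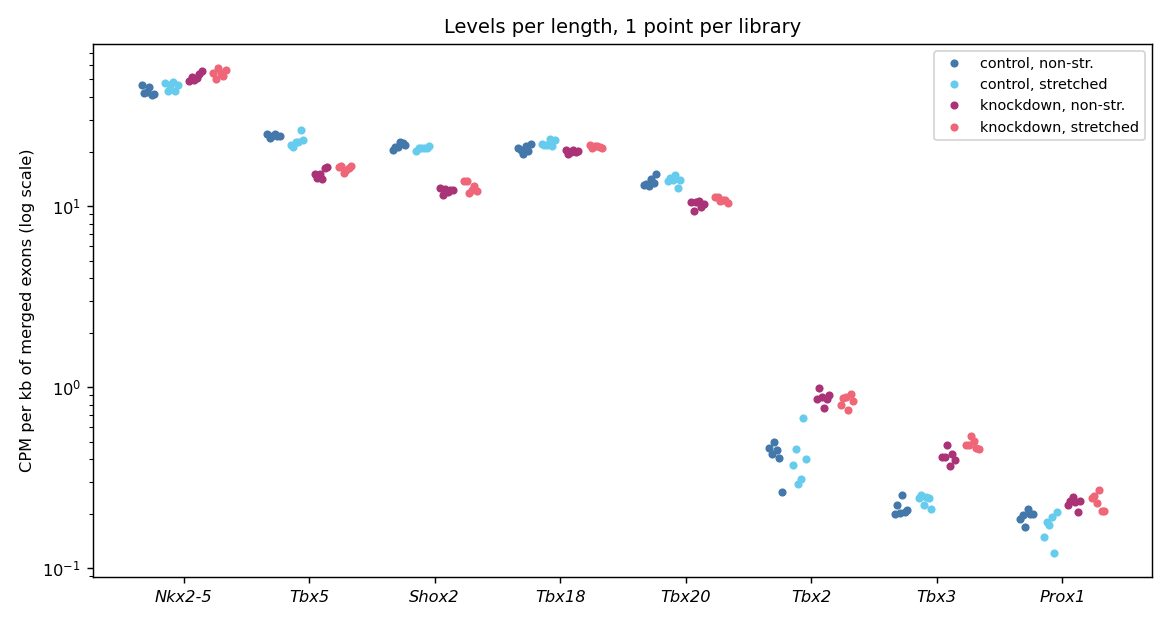
Level per length of the 8 measurable transcription factors, in CPM per kb of merged exons on a log axis, with 1 point per library and 1 colour per group (n = 6 each). Nkx2-5 lies highest in all groups, 5 genes lie above 9 CPM per kb in every library, and Tbx2, Tbx3 and Prox1 lie below 1 CPM per kb in every library.

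Of the 8 tested factors, 7 differed between knockdown and control cells, in both directions. Without stretch, Tbx2, Tbx3, Nkx2-5 and Prox1 rose and Tbx5, Tbx20 and Shox2 fell, while Tbx18 did not pass the test (edgeR's quasi-likelihood test with Benjamini-Hochberg adjustment over 14411 genes; called means an adjusted p under 0.05). Over all genes tested, 57.8% were called in this comparison, 28% higher and 29.7% lower, so that a count of 7 of 8 is to be read against a background of more than every other gene. The median log2 fold change was 0.10 over the 8 factors and 0.01 over all genes. The groups did not overlap for 6 of the 8 factors, against 37.7% of all genes. By size, 5.14% of all genes had a larger absolute log2 fold change than Tbx2, 6.58% a larger one than Tbx3, 8.42% than Shox2 and 11.8% than Tbx5. For Tbx20 that share was 23.8%, and for Nkx2-5 and Prox1 it was 41.3% and 42.2%.

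Among the chamber factors, Tbx5 and Tbx20 fell and Nkx2-5 rose. Tbx5 ranged from 112 to 117 CPM (median 114) in unstretched control cells and from 65.9 to 77.0 (median 70.1) in unstretched knockdown cells. All 6 knockdown libraries lay below all 6 control libraries. Tbx5 thus fell by 38.0%, with a log2 fold change of -0.69 (SE 0.0425, edgeR adjusted p 8.44e-14). Tbx20, which works with Tbx5, Nkx2-5 and Gata4 on chamber genes, ranged from 155 to 179.6 CPM (median 160.2) in control and from 112 to 127 (median 124) in knockdown cells. These groups did not overlap either, and the log2 fold change was -0.42 (SE 0.0394, edgeR adjusted p 5.04e-10). Nkx2-5 went the other way. Its level ran from 70.9 to 80.3 CPM (median 73.0) in control cells and from 83.9 to 95.2 (median 88.0) in knockdown cells, so that every knockdown library was higher. The rise was small, with a log2 fold change of 0.25 (SE 0.0398, edgeR adjusted p 4.20e-06), or 19.1%.

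The repressors Tbx2 and Tbx3 about doubled, from low levels. Tbx2, which represses chamber genes in the atrioventricular canal, ranged from 0.950 to 1.80 CPM (median 1.60) in unstretched control cells, or 39 to 84 counts. In knockdown cells it ranged from 2.78 to 3.61 CPM (median 3.17), or 110 to 170 counts, and no library overlapped. The log2 fold change was 1.07 (SE 0.144, edgeR adjusted p 3.75e-07), which is 2.10-fold. Tbx3, the repressor that marks the whole conduction system, ranged from 1.32 to 1.68 CPM (median 1.38) in control cells and from 2.43 to 3.17 (median 2.73) in knockdown cells. All knockdown libraries again lay above all control libraries. Its log2 fold change was 0.95 (SE 0.0847, edgeR adjusted p 1.91e-10), which is 1.93-fold. The standard error of Tbx2 is the largest among the 8 factors in this comparison, and its control libraries varied by 19.7% (coefficient of variation).

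The node factors did not move together. Shox2, which holds the sinus node program and represses Nkx2-5, ranged from 67.6 to 74.3 CPM (median 71.4) in unstretched control cells. It ranged from 38.2 to 41.8 CPM (median 40.6) in unstretched knockdown cells, far below every control library. Shox2 fell by 43.5%, with a log2 fold change of -0.82 (SE 0.0367, edgeR adjusted p 7.11e-17). Tbx18, which builds the head of the sinus node and also marks epicardium, ranged from 91.1 to 104 CPM (median 97.4) in control cells and from 91.4 to 95.9 (median 94.0) in knockdown cells. These ranges overlapped, and the log2 fold change of -0.05 (SE 0.0293) did not pass the test (edgeR adjusted p 0.121). Without control unstretched replicate 3, the lowest of the Tbx18 control libraries, the log2 fold change was -0.07 with an edgeR adjusted p of 0.0332. Isl1 could not be assessed.

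Prox1, a homeodomain factor of cardiac muscle that also marks lymphatic endothelium and liver, was at the edge of the test. It ranged from 1.41 to 1.78 CPM (median 1.65) in unstretched control cells and from 1.72 to 2.08 (median 1.96) in unstretched knockdown cells, and the ranges overlapped. The log2 fold change was 0.25 (SE 0.105, edgeR adjusted p 0.0473). The call was lost when any of 13 of the 24 libraries was left out, with adjusted p between 0.0511 and 0.107. These were control unstretched replicates 1, 2, 3, 5 and 6, control stretched replicates 2 and 3, knockdown unstretched replicates 1, 2, 3 and 6, and knockdown stretched replicates 2 and 3. DESeq2 gave an adjusted p of 0.0511 and edgeR with the authors' scaling 0.0783.

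**Figure D2:**
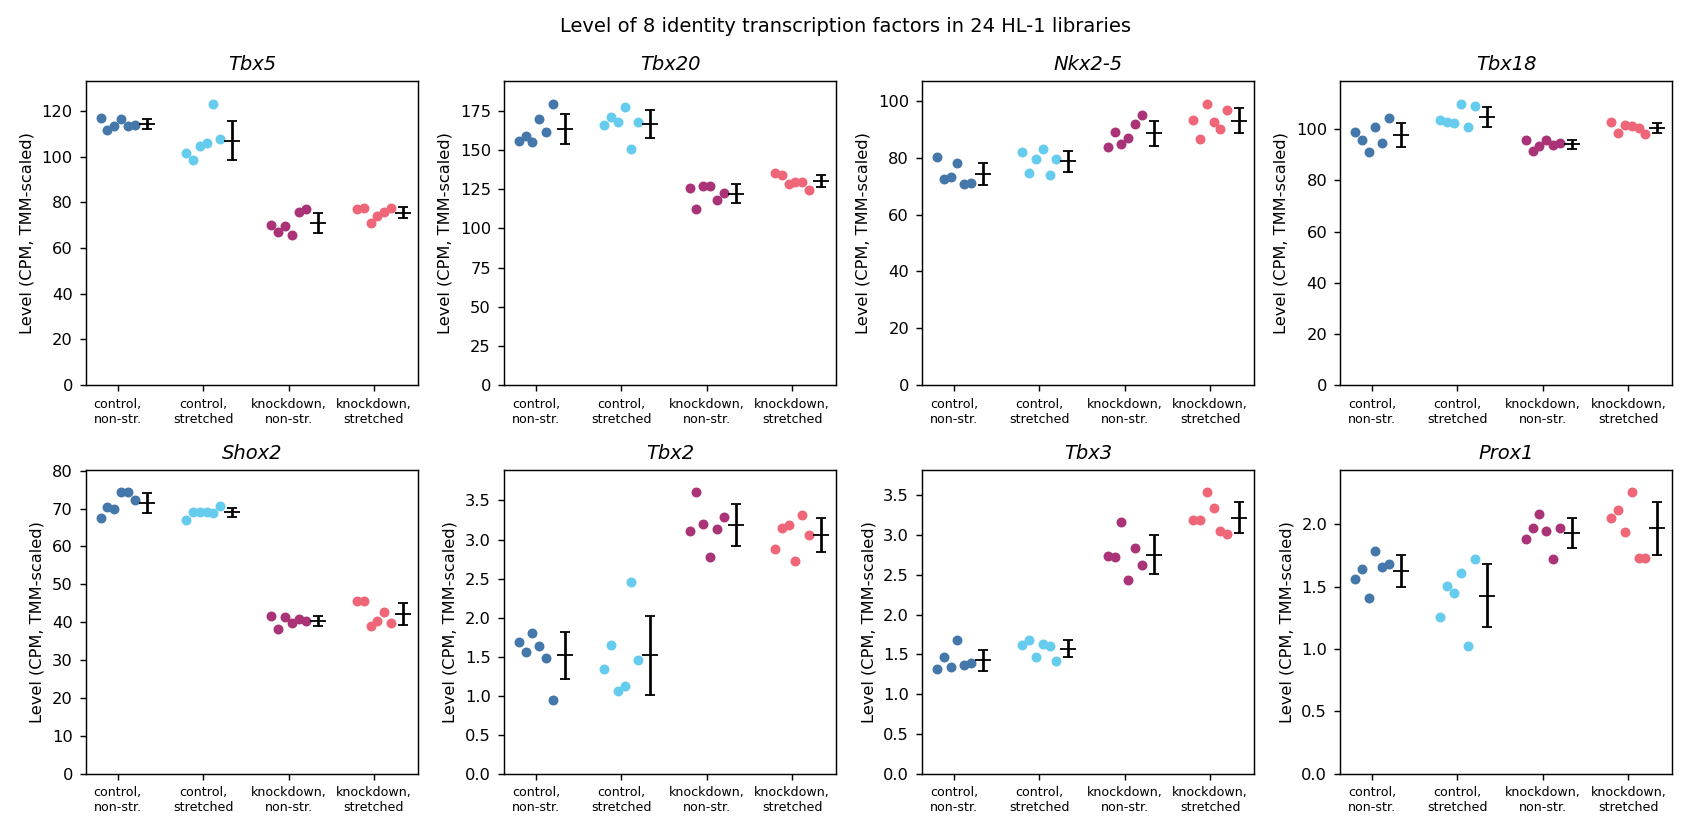
Level of each measurable transcription factor in CPM after TMM scaling, each axis starting at 0, with 1 point per library and the mean ± SD beside each group (n = 6). Tbx5, Tbx20 and Shox2 lie lower and Tbx2, Tbx3 and Nkx2-5 higher in all knockdown libraries than in all unstretched control libraries, and Tbx18 stays between 91.1 and 110.0 CPM throughout.

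Exact permutation tests of the levels (two-sided, on log2 of CPM + 0.5, 40 tests, unadjusted) gave 0.00216, their smallest possible p, for the 6 factors whose unstretched groups did not overlap. They gave 0.00433 for Prox1 and 0.121 for Tbx18. For knockdown with stretch they gave 0.0260 for Tbx18 and 0.00216 for the other 7 tested factors. For stretch in control cells they gave 0.0216 for Tbx18 and 0.0584 or more for the other tested factors. For stretch in knockdown cells they gave 0.00216 for Tbx18, 0.00649 for Tbx3, 0.0195 for Tbx20 and 0.0541 or more for the others.

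Markers of muscle and of other cell types moved with knockdown as well. The summed level of the 8 cardiomyocyte markers ran from 2077 to 2350 CPM in unstretched and from 2023 to 2489 in stretched control libraries, and from 913 to 991 and from 1076 to 1133 in knockdown libraries. The 8 fibroblast markers summed to 244 to 250.1 and 216 to 243 CPM in control libraries and to 80.0 to 97.4 and 95.6 to 101 CPM in knockdown libraries, although Tcf21, Lum and Col1a2 stayed below 1 CPM everywhere. The 6 smooth muscle markers, mostly Acta2, summed to 2349 to 2571 and 2340 to 2727 CPM in control and to 1609 to 1752 and 1733 to 1822 CPM in knockdown libraries, with Rgs5 and Pdgfrb below 1 CPM everywhere. Tbx18 did not pass the test for knockdown, while the 6 epicardial markers, of which only Wt1 and Upk3b exceeded 1 CPM, summed to 11.2 to 12.9 and 12.2 to 12.7 CPM in control and to 6.55 to 7.35 and 6.71 to 7.67 CPM in knockdown cells. Prox1 rose while the 5 lymphatic markers, Lyve1 and Reln near 0, summed to 6.74 to 7.49 and 6.44 to 8.81 CPM in control and to 2.74 to 3.60 and 2.93 to 3.68 CPM in knockdown cells. Without stretch, mean Mmrn1 was 4.31 CPM in control and 1.09 in knockdown cells, and Pdpn 2.31 and 1.46. Flt4, below 1 CPM everywhere, was higher on knockdown, at 0.366 and 0.472. The 3 hepatocyte markers, nearly all of it Afp, summed to 3.21 to 3.84 and 2.82 to 4.44 CPM in control and to 4.17 to 5.11 and 4.08 to 4.74 CPM in knockdown cells, so that they were higher in all unstretched knockdown libraries than in all unstretched control libraries, while Alb and Ttr stayed below 1 CPM. The 6 endothelial markers summed to 9.20 to 10.1 and 8.75 to 10.2 CPM in control and to 7.11 to 9.07 and 7.56 to 8.19 CPM in knockdown cells, lower without overlap at either stretch state, with only Tek and Kdr above 1 CPM. The 7 neuronal markers, nearly all of it Syt1, summed to 5.39 to 6.46 and 4.49 to 6.16 CPM in control and to 5.62 to 6.24 and 5.59 to 7.47 CPM in knockdown cells. The 2 leukocyte markers in the table summed to 1.31 to 1.77 and 1.72 to 3.06 CPM in control and to 1.66 to 2.38 and 2.50 to 3.49 CPM in knockdown cells. The part of these markers in the changes of the 9 factors was not tested. In these bulk libraries, fewer cells of a type and less RNA per cell cannot be told apart.

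Knockdown gave the same directions in stretched cells, which are separate libraries. Of the 8 factors, 7 were called there, against 52% of all genes, and the split was 4 higher and 3 lower, against 25.1% and 26.9% of all genes. All 7 had groups that did not overlap, against 31.9% of all genes, and the median log2 fold change was 0.09 for the 8 factors and 0.00 for all genes. Tbx2 was at 1.06 to 2.45 CPM (median 1.40) in stretched control and at 2.73 to 3.32 (median 3.10) in stretched knockdown cells, a log2 fold change of 1.05 (SE 0.147, edgeR adjusted p 8.52e-07). Its highest control library was replicate 5, the shallow one, at 2.45 CPM. Tbx3 went from 1.41 to 1.68 CPM (median 1.62) to 3.01 to 3.54 CPM (median 3.19), a log2 fold change of 1.04 (SE 0.0839, edgeR adjusted p 3.37e-11). Prox1 was at 1.02 to 1.72 CPM (median 1.48) against 1.73 to 2.26 (median 1.99), with a log2 fold change of 0.45 (SE 0.107, edgeR adjusted p 8.62e-04). Its lowest control library was again replicate 5, at 1.02 CPM.

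The activator Tbx5 ranged from 98.4 to 123 CPM (median 105) in stretched control cells, replicate 5 being the highest, and from 71.1 to 77.5 (median 76.5) in stretched knockdown cells. The log2 fold change was -0.50 (SE 0.0425, edgeR adjusted p 9.01e-11). Tbx20 ranged from 151 to 177 CPM (median 168) and from 124 to 135 (median 129.5), with a log2 fold change of -0.36 (SE 0.0394, edgeR adjusted p 1.38e-08). Here too every knockdown library was below every control library. Shox2 was at 67.1 to 70.7 CPM (median 69.1) and 38.9 to 45.7 (median 41.5), a log2 fold change of -0.71 (SE 0.0367, edgeR adjusted p 2.60e-15). Nkx2-5 was at 74.1 to 83.0 CPM (median 79.7) and 86.7 to 99.2 (median 93.1), a log2 fold change of 0.24 (SE 0.0397, edgeR adjusted p 1.13e-05). Tbx18 was at 101 to 110.0 CPM (median 103) and 98.3 to 103 (median 101), and its log2 fold change of -0.06 (SE 0.0293) did not pass the test (edgeR adjusted p 0.0847). Without replicate 5 of the stretched controls it was -0.07, with an edgeR adjusted p of 0.0392.

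The RNA balance of activators and repressors can be given within each library as a ratio of levels per kb of merged exons, as a description. The size of each ratio depends on the length used, and protein was not measured. Tbx5 exceeded Tbx3 by 98.6 to 125 times (median 117) in unstretched and by 83.0 to 109 times (median 96.2) in stretched control libraries. In knockdown libraries the ratio was 31.3 to 41.5 (median 37.1) without and 28.4 to 36.4 (median 34.3) with stretch, so that the activator stayed far above the repressor but by much less than before. Tbx5 to Tbx2 was 48.8 to 93.0 and 39.0 to 76.7 in the control groups and 14.4 to 18.7 and 17.3 to 21.1 in the knockdown groups. Nkx2-5 to Shox2, a pair that draws the border between working atrium and sinus node, was 1.84 to 2.29 and 2.07 to 2.36 in control and 3.87 to 4.54 and 3.67 to 4.91 in knockdown libraries. None of the 3 ratios overlapped between control and knockdown libraries. This follows from the separation of the single genes given above, which moved in opposite directions within each ratio, and adds no evidence to it.

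Stretch for 60 min moved the factors little. In control cells 1 of 8 was called, Tbx18, against 5.95% of all genes (2.55% higher, 3.39% lower), and none had groups that did not overlap, against 3.19% of all genes. The median log2 fold change was -0.01 for the factors and -0.01 for all genes. Tbx18 went from 91.1 to 104 CPM (median 97.4) to 101 to 110.0 CPM (median 103), a rise by 7.35% with overlapping ranges (log2 fold change 0.10, SE 0.0293, edgeR adjusted p 0.0355). In knockdown cells 1 of 8 was called as well, against 8.93% of all genes (5.32% higher, 3.61% lower), and it was again Tbx18. There it went from 91.4 to 95.9 CPM (median 94.0) to 98.3 to 103 CPM (median 101), and every stretched library was above every unstretched one, as for 5.44% of all genes. Its log2 fold change was 0.10 (SE 0.0293, edgeR adjusted p 0.0403), and the median over the factors was 0.08 against -0.01 over all genes.

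Both Tbx18 calls lie near the threshold. The one in control cells was lost without any of control stretched replicates 1, 4 or 6 or control unstretched replicates 2, 3 or 5 (edgeR adjusted p 0.0577 to 0.103), and when only both groups entered the fit (0.0865). The one in knockdown cells was lost without any of knockdown stretched replicates 1, 3, 4 or 5 or knockdown unstretched replicates 2, 3, 5 or 6 (edgeR adjusted p 0.0592 to 0.1001), and with no filter on low counts (0.0707). The log2 fold change itself stayed between 0.08 and 0.12 over all these settings.

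The other factors did not pass the adjusted edgeR test for stretch with all libraries. At an unadjusted edgeR p under 0.05 there were 3 of 8 factors in control cells, 2 higher and 1 lower, with Tbx18 included. In knockdown cells there were 4 of 8, all 4 higher, again with Tbx18. Over all 14411 genes, 3105 and 3217 had such a p. Tbx5 had log2 fold changes of opposite sign, -0.10 (SE 0.0421, edgeR adjusted p 0.172) in control and 0.09 (SE 0.0427, edgeR adjusted p 0.209) in knockdown cells. Tbx3 had 0.14 and 0.22, the second with an edgeR adjusted p of 0.0757 that passed with limma-voom (0.0458) and without knockdown unstretched replicate 3 (edgeR, 0.0375). Tbx20 had 0.03 and 0.09, Nkx2-5 had 0.08 and 0.07, and Shox2 had -0.05 and 0.06. For Tbx2 (-0.04 and -0.06) and Prox1 (-0.17 and 0.03) the standard errors of 0.103 to 0.155 on the log2 scale leave room for changes of that size. Without replicate 5 of the stretched controls, Tbx5 was called lower in stretched control cells (log2 fold change -0.14, edgeR adjusted p 0.00675), which made 2 of 8 factors called, while the calls over all genes went from 857 to 2023.

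**Figure D3:**
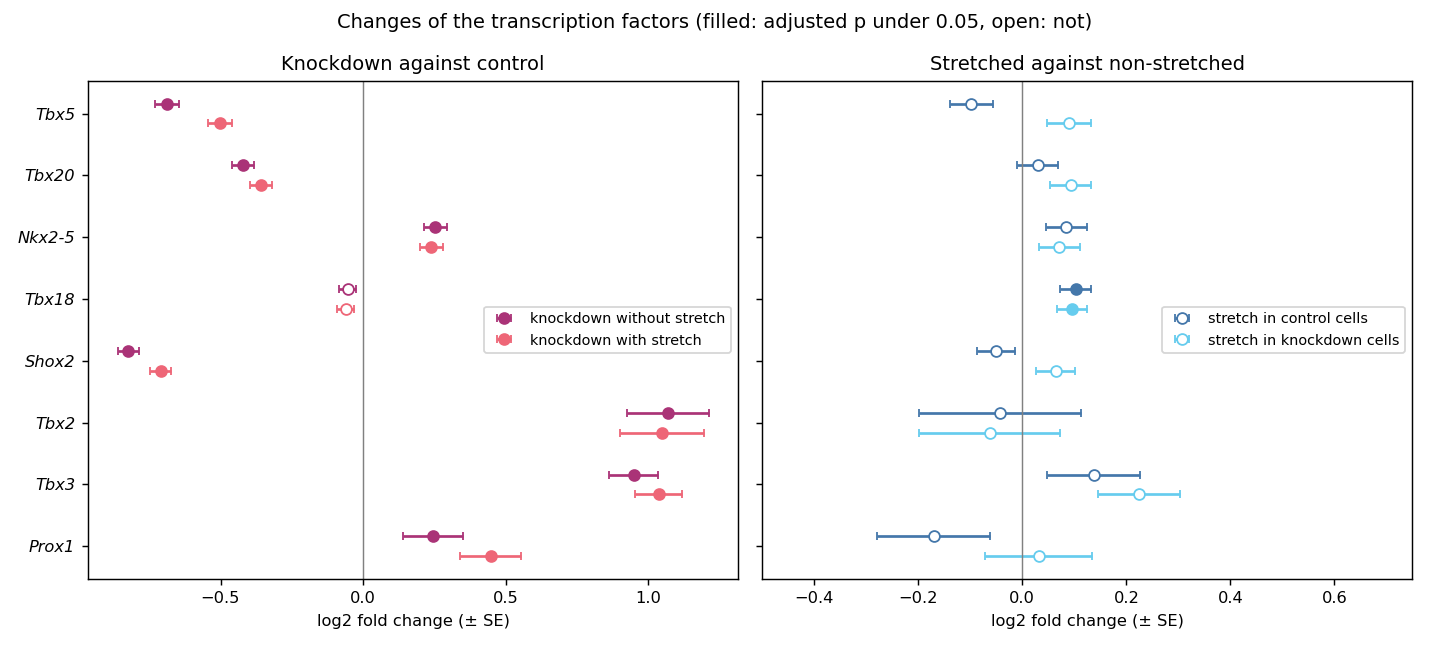
Log2 fold change ± SE of the 8 measurable transcription factors for knockdown against control (left) and stretched against unstretched cells (right), with filled points for an edgeR adjusted p under 0.05. The left panel spans -0.82 to 1.07, while all values in the right panel lie between -0.17 and 0.22 and only Tbx18 is filled.

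The difference between both stretch responses, tested as an interaction, was called for none of the 8 factors by edgeR. Over all genes 0.0208% were called, and the median log2 interaction was 0.08 for the factors and 0.01 for all genes. At an unadjusted p under 0.05 there were 2 factors, Tbx5 and Shox2, and DESeq2 and limma-voom also called 0. Tbx5 had an interaction of 0.19 on the log2 scale (SE 0.0600, edgeR adjusted p 0.273). Without replicate 5 of the stretched controls it was 0.23, with an edgeR adjusted p of 0.0264, so that the outcome for Tbx5 depends on that library, and 109 genes of all were then called against 3. Shox2 had an interaction of 0.11 (SE 0.0517, edgeR adjusted p 0.493).

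The pattern of each called factor over the 24 libraries was compared with those of 11323 well-expressed genes by Pearson's r of log2 CPM, as a description. The libraries share their group means, so r of the deviations from these means is given beside it. Tbx5 was most like Gata4 (r 0.990, deviations 0.871), its partner on chamber promoters, and like the collagen receptor gene Ddr1 (0.989, deviations 0.826). Tbx20 was most like the muscle factor Mef2a (0.989, deviations 0.897) and the nuclear receptor gene Esrrg (0.989, deviations 0.901). Without stretched control replicate 5, a check added after seeing the data, r of the deviations was 0.767 and 0.702 for the 2 Tbx5 pairs and 0.868 and 0.866 for the 2 Tbx20 pairs. Shox2 was most like Dio2 (0.995, deviations 0.806), which activates thyroid hormone, and the collagen gene Col5a2 (0.993, deviations 0.62). Tbx2 was most like Adcy3 (0.957, deviations 0.818) and Nup210 (0.952, deviations 0.757). Tbx3 was most like Amotl2 (0.979, deviations 0.216) and Dusp3 (0.974, deviations 0.298), a likeness that lay mostly between groups. Nkx2-5 was most like the stress-response gene Gdf15 (0.931, deviations 0.649) and Jund (0.930, deviations 0.630), Tbx18 like Dact1 (0.875, deviations 0.602) and Ddx5 (0.857, deviations 0.702), and Prox1 like Cenpj (0.915, deviations 0.799) and Ggct (0.900, deviations 0.807). Without stretched control replicate 5, r of the deviations was 0.659 and 0.570 for the Tbx2 pairs and 0.628 and 0.663 for the Prox1 pairs.

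Among the factors themselves, deviations from the group means tied some pairs. Tbx18 and Tbx20 varied together within groups (r 0.712, and 0.686 without stretched control replicate 5). Tbx2 and Tbx20 varied in opposite directions (r -0.724, and -0.608 without that library). The negative value for Tbx5 and Prox1 (r -0.422) was 0.007 without that library. These r values share library depth and scaling and carry no test.

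Genes around these factors were taken from lists of their relatives, partners and targets, to be read against 28% of all genes higher and 29.7% lower on knockdown, with a median log2 fold change of 0.01. Without stretch, the other T-box genes were split on knockdown: 3 of 8 tested rose and 1 fell, with a median log2 fold change of 0.17. Eomes fell from 19.3 to 14.2 CPM (log2 fold change -0.45, edgeR adjusted p 4.33e-11), and Tbx1, a factor of the developing outflow tract, rose from 7.72 to 11.1 CPM (0.52, edgeR adjusted p 2.90e-06). Tbx21 was called higher at 0.0875 against 0.308 CPM, but its control level is that of about 3 counts. Of 16 other chamber and cardiac regulators, 12 fell and 2 rose (median -0.38). Hand2 fell from 506 to 335 CPM (log2 fold change -0.60, edgeR adjusted p 7.44e-15) and Gata6 from 153 to 103 CPM (-0.57, edgeR adjusted p 4.24e-14), 2 regulators of heart development. Hey2, a repressor of atrial genes in the ventricle, rose from 1.22 to 4.10 CPM (1.75, edgeR adjusted p 3.48e-14).

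Of 13 cofactors, 5 rose and 6 fell (median -0.11). Smarcd3, the cardiac chromatin remodelling subunit that works with Tbx5 and Gata4, fell from 85.9 to 47.8 CPM (log2 fold change -0.85, edgeR adjusted p 6.90e-19). Hopx, a homeodomain protein without DNA binding, fell from 87.3 to 44.6 CPM (-0.97, edgeR adjusted p 8.53e-17), and the Groucho-type corepressor Tle1 rose from 18.8 to 35.4 CPM (0.91, edgeR adjusted p 1.40e-17). Of 10 BMP and Id genes, 5 fell and 0 rose (0 also at an unadjusted p under 0.05 in edgeR), with a median of -0.18. Among the genes of this list, only the BMP ligands and receptors are placed upstream of Tbx2 and Tbx3 in the embryo. The ligand Bmp4 fell from 11.1 to 5.42 CPM (log2 fold change -1.03, edgeR adjusted p 2.18e-13), and the ligand Bmp10 from 0.522 to 0.143 CPM (-1.82, edgeR adjusted p 2.64e-06). Smad6, an inhibitor of the same pathway, fell from 17.7 to 9.70 CPM (-0.86, edgeR adjusted p 7.76e-11).

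Pacemaker and working atrial genes were both lower. Of 12 pacemaker channels and related genes, 10 fell and 2 rose (median -0.72). The potassium channel gene Kcnj5 fell from 14.3 to 5.41 CPM (log2 fold change -1.40, edgeR adjusted p 1.83e-17) and Bves from 93.6 to 60.3 CPM (-0.63, edgeR adjusted p 6.15e-18). Hcn4, the main pacemaker channel of the sinus node and named here after its values were seen, fell from 83.8 to 41.4 CPM (-1.02, edgeR adjusted p 3.00e-15). Of 13 working atrial genes, 11 fell and 1 rose (median -0.82). Dkk3 fell from 447 to 106 CPM (log2 fold change -2.07, edgeR adjusted p 5.58e-24), the calcium release channel gene Ryr2 from 270.5 to 125 CPM (-1.11, edgeR adjusted p 2.83e-19) and the gap junction gene Gja1 from 100.03 to 56.7 CPM (-0.82, edgeR adjusted p 1.07e-17). Ryr2 and Myh6 are also among the cardiomyocyte markers above. Of 3 ventricular genes, 2 rose, Hey2, which is counted among the regulators too, and Myl2, which stood at 0.0664 against 0.274 CPM and so at about 3 counts in control cells.

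**Figure D4:**
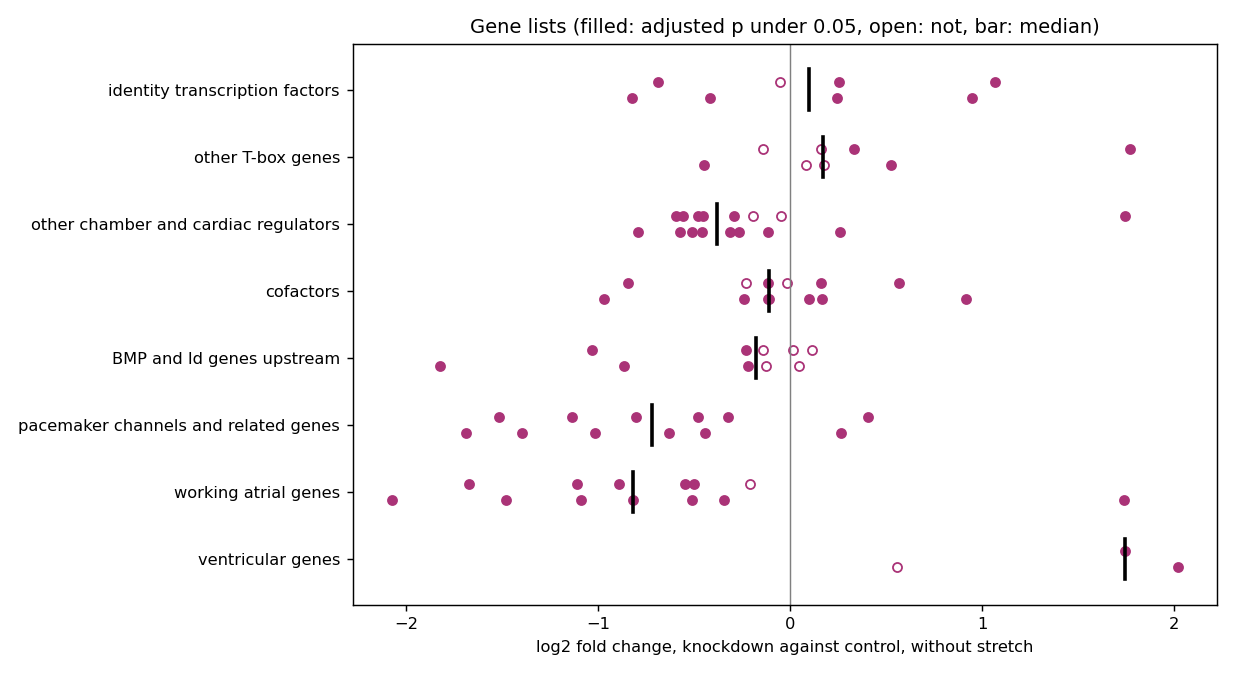
Log2 fold change of each tested gene on knockdown without stretch, by list, with filled points for an edgeR adjusted p under 0.05 and a bar at each list's median. The identity factors spread on both sides of 0 from -0.82 to 1.07, while the medians of the pacemaker and working atrial lists lie at -0.72 and -0.82.

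With stretch, the split on knockdown was 4 higher and 1 lower of 8 other T-box genes, 3 and 11 of 16 regulators, 4 and 5 of 13 cofactors, 1 and 5 of 10 BMP and Id genes, 1 and 10 of 12 pacemaker genes, 1 and 10 of 13 working atrial genes, and 3 and 0 of 3 ventricular genes, against 25.1% and 26.9% of all genes. Among those with the smallest adjusted p, Hey2 (log2 fold change 1.44) and Tle1 (0.92) rose. Hand2 (log2 fold change -0.44), Meis1 (-0.48), Bmp4 (-0.91), Smarcd3 (-0.72) and Dkk3 (-1.76) were also among them and fell.

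Fewer of these genes were called for stretch, as was the case over all genes (5.95% in control and 8.93% in knockdown cells). In control cells 5 of 16 regulators fell and 1 rose, with Gata5 at -0.34 (edgeR adjusted p 0.00298), Nr2f2 at -0.13 and Hand2 at -0.13 on the log2 scale. Of the 13 cofactors 2 rose, Tle3 by 0.20 and Lmo4 by 0.11, and 1 fell, Smarcd3 by 0.11 on the log2 scale. Popdc2 (0.17, edgeR adjusted p 0.00119) and Hcn4 (0.20, edgeR adjusted p 0.0186) rose among the 12 pacemaker genes, and Id3 fell by 0.23 among the 10 BMP and Id genes. No working atrial, ventricular or other T-box gene was called there by edgeR, while 1, 1 and 3 of them had an unadjusted p under 0.05. In knockdown cells 5 of 12 pacemaker genes rose, among them Popdc2 (0.23) and Bves (0.10), and 4 of 13 working atrial genes rose, among them Dkk3 (0.27), Ryr2 (0.15) and Myh6 (0.40). Of the 16 regulators 4 rose, led by Gata6 (0.21) and Meis2 (0.16), and 2 fell. Of the 8 other T-box genes Mga rose by 0.15 and Tbx1 fell by 0.37 on the log2 scale. Without replicate 5 of the stretched controls, the calls for stretch in control cells were 1 higher and 7 lower of 16 regulators, 4 and 2 of 13 cofactors, 2 and 2 of 10 BMP and Id genes, 3 and 1 of 12 pacemaker genes, and 1 and 1 each of 13 working atrial and 8 other T-box genes. Of all listed genes, only Dkk3 had a called interaction in edgeR (0.31, edgeR adjusted p 0.0301).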

How the data were processed

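Poly(A) RNA of 24 HL-1 samples, 6 in each of 4 groups, was sequenced with a stranded kit, per the labels' protocols. Estimated counts, not normalized, were deposited by the authors for 20351 protein-coding genes, beside a table of normalized signal. Per the submitters' processing notes, the build was GRCm38.p6 and the tools were R 3.4.4, kallisto 0.44.0 and DESeq2 1.18.1. How transcripts were summed to genes is not given in the sources used here. The deposited normalized signal entered 1 alternative.

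After rounding, the counts were fitted in R 4.3.3 by edgeR 4.0.16 (TMM, filterByExpr at a count of 10 and a total of 15, robust quasi-likelihood fit of all 24 libraries with 1 coefficient per group, 20 residual degrees of freedom). This left 14411 genes, over which p-values were adjusted (Benjamini-Hochberg, threshold 0.05). Totals of 23.6 to 54.8 M give counts of 25 to 172 per library for Tbx2, Tbx3 and Prox1 and of 1548 to 9135 for the others except Isl1. The 60 pairs of replicates within groups all differed by more than sampling noise. Levels per kb used merged exons of GENCODE vM21, or the longest coding transcript as an alternative. Promoter sequences are RefSeq's. Up to 3 genes past the threshold with the smallest adjusted p were named per list and comparison, and for each called factor the 2 genes most like it among those whose average log2 CPM was 1 or more. A gene that this rule names is not reported here. Alternatives were DESeq2 1.42.0, limma-voom (limma 3.58.1), other scalings and filters, only the groups compared, blocks for the replicate number or code letter, pseudocounts of 0.1 and 2, and leaving out each library. The factors and lists were chosen with earlier results of these data known.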

Additional observations from a re-analysis of the deposited data

Results flagged for a closer look

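One value of the 36 examined (9 genes in 4 groups of 6 libraries) stood apart from the others of its group: Trim63 in stretched knockdown replicate 1, at 83.5 CPM against 60.0 to 67.9 CPM in the other 5 libraries. Its gap to the nearest library was 0.661 of the group's range, above Dixon's 95% critical value for 6 samples. Chance alone exceeds that value in about 1 in 20 groups. No library of the transcription factors was set apart in this way. Trim63 remained far below every control library in that replicate too.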

How the results depend on the processing

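The directions and calls of Tbx2, Tbx3, Tbx5, Tbx20, Nkx2-5 and Shox2 on knockdown held under all 9 alternatives of tool, scaling, filter and block and without any of the 24 libraries, both with and without stretch. TMM factors differed between knockdown libraries (1.02 to 1.06) and control libraries (0.937 to 0.973, and 1.04 for the shallow stretched replicate 5). No alternative scaled by library totals alone. How far the small changes of Nkx2-5 and Tbx18 depend on such scaling was not tested. The members called for stretch in control cells dropped from 1 to 0 when only both groups were fitted, and those for stretch in knockdown cells were 0 with no filter and 2 with limma-voom. For stretch in control cells, 377 genes of all were called with only both groups and 566 with the authors' scaling, against 857. The interaction had 122 calls with DESeq2, 1 with the authors' scaling, 9 with the replicate block and 45 with the code letter as a block, against 3. Uncalled values near 0 changed sign: Tbx20 for stretch in control cells (-0.0596 with the authors' scaling) and the Tbx2 interaction (0.0272 with limma-voom). With the longest coding transcript as length, levels in unstretched control cells were 48.8 CPM per kb for Nkx2-5, 29.0 for Tbx5, 23.2 for Shox2, 18.0 for Tbx20 and 0.287 for Tbx3. The order of the means in those cells was unaltered, but Tbx18 (19.5 to 22.3) and Tbx20 (17.0 to 19.8) then overlapped, as did Tbx2 (0.262 to 0.497) and Tbx3 (0.265 to 0.336), while Tbx3 and Prox1 (0.178 to 0.226) did not. The cause of these shifts was not tested.

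Leaving out each library in turn, calls over all genes ranged from 568 (without control stretched replicate 1) to 2023 (without control stretched replicate 5) for stretch in control cells, 856 to 1930 for stretch in knockdown cells, 7974 to 8888 and 7102 to 8017 for knockdown without and with stretch, and 0 to 109 for the interaction. Factors called ranged from 0 to 2, 0 to 1, 6 to 7, 7 to 8 and 0 to 1. Signs of uncalled values turned for the interaction of Nkx2-5 (-0.0366 to 0.0076), Tbx18 (-0.0318 to 0.0122) and Tbx2 (-0.0986 to 0.134), for Prox1 with stretch in knockdown cells (-0.011 to 0.0663) and for Tbx2 with stretch in control cells (-0.197 to 0.0353, the first without control stretched replicate 5).

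The replicate number was tested as a replicate block because groups share numbers. Over 36 same-numbered pairs the correlation of deviations ran from -0.0638 to 0.147 (median 0.015), 3 pairs exceeded 0.1 and 8 of 24 libraries correlated best with their own number. No chance level was computed for these values, so the check does not decide whether the numbers pair the samples. The block moved the number of genes called from 857 to 946 and from 1287 to 1403 for stretch, and changed no call of a transcription factor. Low counts limit Tbx2, Tbx3 and Prox1 (25 to 172 counts per library), and Isl1 is below detection.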
